A study of Saccharomyces cerevisiae with 18 samples.

Results

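The background of the ChIP-seq experiments was measured by mock immunoprecipitations (mock IPs), in which the 12CA5 anti-HA antibody was added to chromatin of wild-type *Saccharomyces cerevisiae* that carries no HA tag. The comparison was of the mock IP from cells in osmotic shock, 5 min after 0.4 M KCl was added to the medium, with the mock IP from mock-treated cells, which received the same volume of rich medium (YEPD). These are 2 of the 18 libraries of the series, 1 for each treatment, and both members were taken by their labels. Both cultures were wild type in the W303 background, grown in YEPD, crosslinked with formaldehyde, and split from a common culture for the 2 treatments according to the protocol. The libraries they are set beside came from the same treatments of wild-type cells: input, which is lysate set aside before precipitation, Rpb3, a subunit of RNA Pol II precipitated without a tag, and Hog1 precipitated through an HA tag. Values were given for 6330 ORFs, of which 6013 are treated together and the 317 with the lowest input are described apart. Signal is the deposited coverage of an ORF, scaled to its length and to the total of the library, so it has no absolute unit and compares levels between ORFs per length. With 1 library for each treatment there is no replicate and no test: a difference below is one between 2 libraries, and its error is unknown.

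A mock IP recovers DNA that sticks to beads, antibody or tube without a tagged protein. In yeast, strongly transcribed chromatin is known to be recovered in excess in ChIP of unrelated or untagged proteins, and mock IPs are the usual control for it. In high osmolarity the MAP kinase Hog1 enters the nucleus and is recruited, through transcription factors such as Sko1 and Hot1, to stress genes, where glycerol synthesis is among the best known targets. Transcription of ribosomal protein and other growth genes falls in the same minutes.

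The middle of the distribution was alike in both mock IPs, and the ORFs at its upper end were different ones. The median signal over the 6013 ORFs was 7930 in osmotic shock and 7690 in mock-treated cells, and 5% of ORFs were above 10600 in osmotic shock and above 11100 in mock-treated cells. The signal was below input over most ORFs: the median ratio of mock IP to input was 0.773 in osmotic shock and 0.767 in mock-treated cells, and 6.14% of ORFs in osmotic shock and 7.03% in mock-treated cells were above input. Across ORFs the 2 mock IPs hardly followed each other, with a Spearman rank correlation of 0.03 and a Pearson correlation of 0.15 on log2 signal, against 0.60 and 0.60 for the 2 inputs and 0.74 (Spearman) for Rpb3. These are descriptions over 6013 ORFs that share 1 library each, and ORFs are not replicates. Of the 100 ORFs with the highest mock IP signal in each treatment, 19 were the same. In osmotic shock 24 of the 100 were Hog1-occupied ORFs and 0 were cytosolic ribosomal protein ORFs, whereas in mock-treated cells 2 were Hog1-occupied and 35 were cytosolic ribosomal protein ORFs. Among all 6013 ORFs, 28 are Hog1-occupied and 126 are cytosolic ribosomal protein ORFs.

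**Figure D1:**
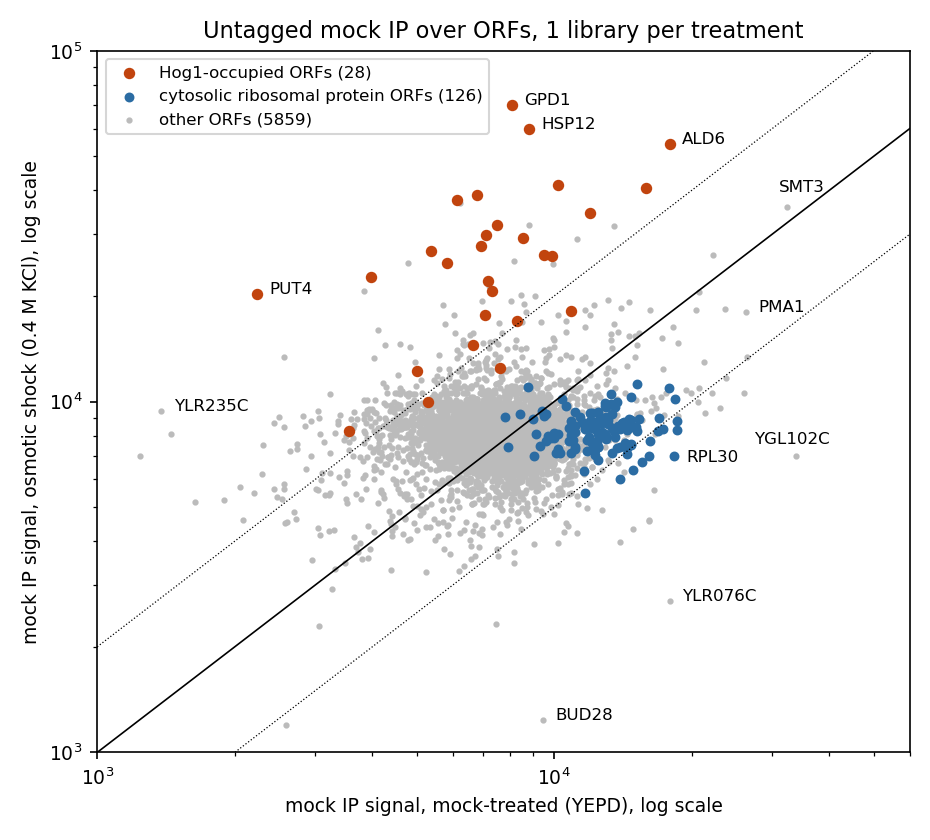
Mock IP signal of each of 6013 ORFs in osmotic shock (vertical axis) against that in mock-treated cells (horizontal axis), both on log scales, with 1 point per ORF, the solid line at equal signal and dotted lines at 2-fold. The 28 Hog1-occupied ORFs lie above the solid line, with GPD1 highest at 69900 in osmotic shock, and most of the 126 cytosolic ribosomal protein ORFs lie below it.

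The libraries were checked against their label at the HOG1 gene. Over the HOG1 ORF the mock IP signal was 9860 in osmotic shock (rank 511 of 6013) and 7270 in mock-treated cells (rank 3697). The medians over all ORFs were 7930 and 7690 in the same order. The libraries of HA-tagged Hog1 had 96400 in osmotic shock and 118000 in mock-treated cells over the HOG1 ORF. The mock IP libraries thus lack the high signal over HOG1 that the tagged libraries carry. Marker loci HIS3, LEU2, ADE2 and CAN1 had mock IP signals between 7230 and 9160 in osmotic shock and between 4900 and 8850 in mock-treated cells. TRP1 stood higher, at 18400 in osmotic shock and 23600 in mock-treated cells, over inputs of 14000 and 12700 in the same order.

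The mock IP signal was at least 2-fold higher in osmotic shock over 126 of the 6013 ORFs (2.1%) and at least 2-fold lower over 30 (0.499%), and 5298 (88.1%) changed less than 1.5-fold. After each mock IP was divided by the input of its treatment, 55 ORFs (0.915%) were higher and 14 (0.233%) were lower. Of the 126, 49 were also among these 55, and of the 30, 10 were also among these 14. The median ORF changed by 0.03 on the log2 scale in mock IP and by 0.03 in input.

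Of the 10 ORFs that rose most, 7 are Hog1-occupied ORFs, a set described further on. GPD1, which encodes the glycerol 3-phosphate dehydrogenase of glycerol synthesis, had a mock IP signal of 69900 in osmotic shock and 8090 in mock-treated cells, a log2 fold of 2.96. It ranked first of all 6013 ORFs in osmotic shock, where its input was 25300, against 11800 in mock-treated cells. Divided by input the log2 fold of GPD1 was 1.93. Its Rpb3 signal was 864000 in osmotic shock and 10600 in mock-treated cells.

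PUT4, the proline permease gene, had 20300 in osmotic shock and 2240 in mock-treated cells. HSP12, which encodes a small membrane-associated heat shock protein, had 59700 in osmotic shock and 8810 in mock-treated cells. HOR2, a glycerol 3-phosphatase gene, had 37500 in osmotic shock and 6140 in mock-treated cells. All 3 had log2 folds above 2 (2.72 for PUT4, 2.63 for HSP12 and 2.43 for HOR2). The mock-treated signal of PUT4 was below the first percentile of all ORFs (3461), whereas those of HSP12 and HOR2 were not. HOR7, named for its response to hyperosmolarity, had 38800 in osmotic shock and 6770 in mock-treated cells. In osmotic shock its signal was 3.37 times input, the highest ratio among the 6013 ORFs, and in mock-treated cells it was at input (0.98).

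Others of the 10 largest rises were FMP45 of the Sur7 family (22700 in osmotic shock, 3980 in mock-treated cells), FMP43, a mitochondrial pyruvate carrier subunit (26900 and 5380, same order), the DNA damage responsive gene DDR2 (20600 and 3840) and the glucokinase gene GLK1 (24800 and 4800). Their log2 folds lay between 2.13 and 2.25. The remaining ORF, YFL013W-A, had 36900 in osmotic shock and 6220 in mock-treated cells, with 184000 and 3920 in Rpb3. By systematic number YFL013W-A lies beside HSP12 (YFL014W). Each of these 10 ORFs also rose in Rpb3, by 3.97 to 6.25 on the log2 scale.

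A set of 28 ORFs is marked in the table as occupied by Hog1 in osmotic shock. The study chose them on 3 measures, namely Hog1 signal less the mock IP and divided by input, the ratio of Hog1 signal with stress to that without, and Hog1 signal per length. The mock IP entered the first of these, in which a high mock IP signal counted against an ORF. Mock IP signal was at least 2-fold higher over 24 of the 28 in osmotic shock and lower over 0, beside 2.1% and 0.499% of all ORFs. The median over the 28 was 26100 in osmotic shock and 7245 in mock-treated cells, with a median log2 fold of 1.52 (range 0.65 to 2.96). Of the 28, 26 were above input in osmotic shock and 3 in mock-treated cells, beside 6.14% and 7.03% of all ORFs. The input of these ORFs was higher in osmotic shock too, by a median of 0.44 on the log2 scale. With division by input 17 of the 28 were 2-fold higher, beside 0.915% of all ORFs, with a median log2 fold of 1.12.

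**Figure D2:**
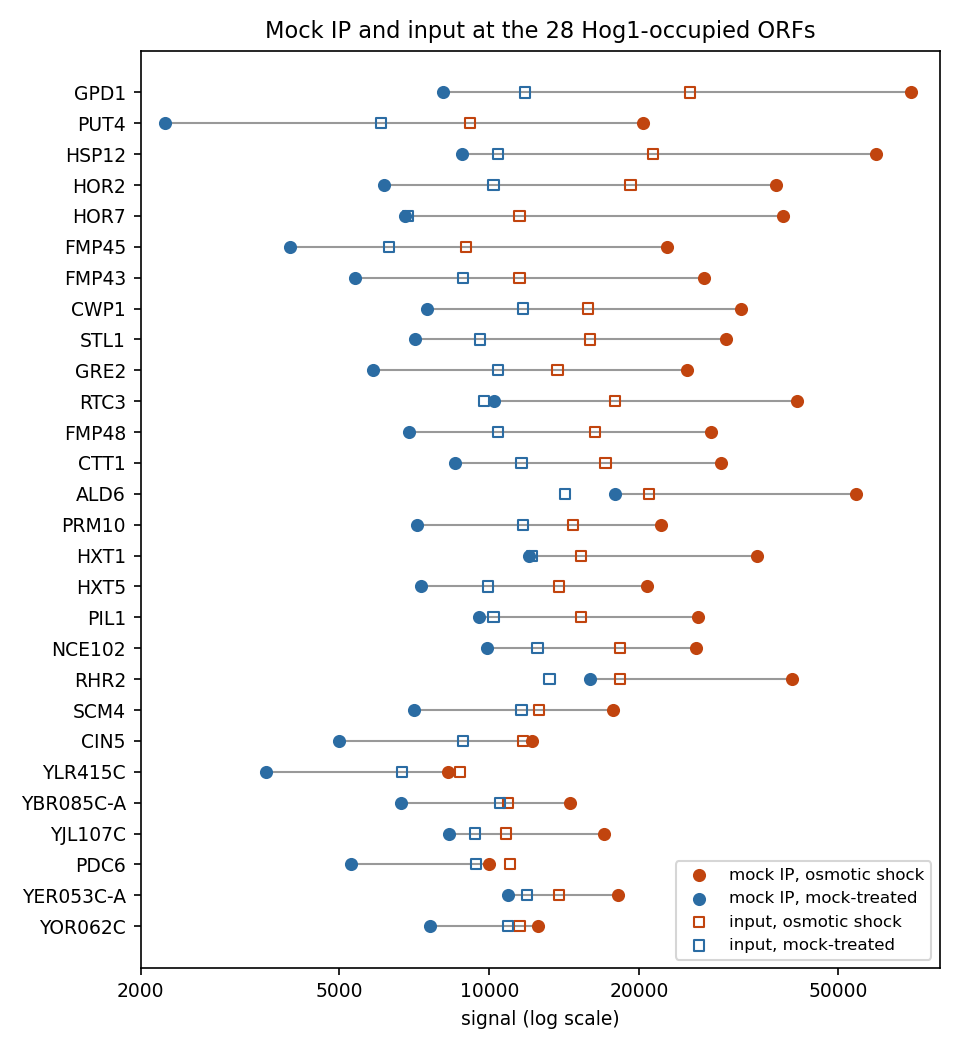
Mock IP signal (filled circles, joined for each ORF) and input signal (open squares) at the 28 Hog1-occupied ORFs, osmotic shock in red and mock-treated in blue, on a log scale, with 1 library per point and ORFs ordered by log2 fold of the mock IP. The mock IP of osmotic shock lies to the right of that of mock-treated cells at all 28, and in osmotic shock it lies above input at 26.

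Among glycerol genes of this set, RHR2, a second glycerol 3-phosphatase gene, had 40500 in osmotic shock and 15900 in mock-treated cells, and STL1, the glycerol symporter gene, had 29800 and 7090 in the same order. RHR2 was already above input in mock-treated cells (1.20 times), where its Rpb3 signal was 171000. ALD6, which encodes cytosolic aldehyde dehydrogenase, was alike in this, with 54300 in osmotic shock and 17900 in mock-treated cells and an Rpb3 signal of 757000 and 192000. RTC3 was the remaining ORF above input in mock-treated cells, with 41400 in osmotic shock and 10200 in mock-treated cells.

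Enzymes of defence against oxidative and carbonyl stress followed. CTT1, the cytosolic catalase gene, had 29200 in osmotic shock and 8550 in mock-treated cells, and GRE2, a methylglyoxal reductase gene, had 24900 and 5840. Log2 folds were 1.66 for CTT1 and 1.92 for GRE2. At the cell surface, CWP1, a cell wall mannoprotein gene, had 31900 in osmotic shock and 7500 in mock-treated cells. The eisosome genes PIL1 and NCE102 had 26200 and 26000 in osmotic shock and 9520 and 9900 in mock-treated cells. The hexose transporter genes HXT1 and HXT5 had 34400 and 20700 in osmotic shock and 12000 and 7310 in mock-treated cells. All 5 surface genes passed 2-fold, with log2 folds between 1.31 and 1.95.

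The 4 occupied ORFs under 2-fold were YOR062C (log2 fold 0.65), YER053C-A (0.68), the minor pyruvate decarboxylase gene PDC6 (0.81) and YJL107C (0.95). PDC6 and YLR415C were below input in osmotic shock as well, at 0.91 and 0.95 times. Across the 28 the log2 fold of the mock IP went with that of Rpb3 (Pearson 0.69, Spearman 0.68), as a description of ORFs from the same libraries.

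Set beside the Hog1 library of osmotic shock, the mock IP signal was between 19.2% (SCM4) and 56.9% (HSP12) of the Hog1 signal over the 28 ORFs, with a median of 38.8%. Hog1 signal was at least 2-fold above the mock IP over 26 of the 28. Over all 6013 ORFs the median was 60.6% in osmotic shock. In mock-treated cells it was 47.5% over the 28 and 57.5% over all 6013 ORFs. In both treatments the background is thus a smaller share of the Hog1 signal at these ORFs than at the median ORF. In osmotic shock its own level is higher there. The Hog1 signal, also less the mock IP, was used in choosing the 28, so the 26 and these shares are in part set by that choice. They are a description, and the number of all 6013 ORFs past the same cutoff is not given here.

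Of 40 ORFs next to the 28 in the R64 gene order, 1 was higher and 1 was lower by 2-fold, beside 2.1% and 0.499% of all ORFs, and the median log2 fold was 0.17. The higher was CWP2, a cell wall mannoprotein gene beside CWP1, with 14600 in osmotic shock and 4610 in mock-treated cells, and with Rpb3 at 147000 and 153000. The lower was YHR086W-A, which lies between NAM8 and RTC3 by systematic number, with 3980 in osmotic shock and 13900 in mock-treated cells. RTC3 changed the opposite way, and Rpb3 over YHR086W-A was 5490 in both treatments.

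Of the 30 ORFs that fell, 13 (43.3%) were ribosomal protein ORFs or carried a systematic number next to one, beside 6.85% of all 6013. The largest fall was at YLR076C, with 2710 in osmotic shock and 17900 in mock-treated cells, a log2 fold of -2.35. It lies beside RPL10, which encodes a protein of the large ribosomal subunit and had 10500 in osmotic shock and 13300 in mock-treated cells in mock IP, and 40200 and 170000 in Rpb3. BUD28, beside RPL22A, had 1240 in osmotic shock and 9430 in mock-treated cells. Input was lower in osmotic shock too, at 4720 against 10500 over YLR076C and at 4130 against 9920 over BUD28. Divided by input their log2 folds were -1.34 and -1.13. YGL102C, beside RPL28, had the highest mock IP signal of the 6013 ORFs in mock-treated cells, 33800, against 6980 in osmotic shock.

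The other ORFs of the 10 largest falls were YDL228C (beside SSB1, a ribosome-associated chaperone gene), BUD19 (beside RPL39), YHR086W-A, YAL037C-A, YLR264C-A (beside RPS28B), APQ13 and RPL30. RPL30 itself had 6990 in osmotic shock and 18300 in mock-treated cells, with Rpb3 at 18600 and 92000. APQ13 fell to 2330 in osmotic shock, against 7460 in mock-treated cells, while its Rpb3 was 2170 and 2250. Divided by input, YAL037C-A, APQ13 and YLR264C-A were under 2-fold, with log2 folds of -0.62, -0.92 and -0.94, and the others of the 10 stayed past it. Of these 10 ORFs, 6 are ribosomal protein ORFs or carry a systematic number next to one. Of the 30, 13 have no entry in the R64 reference, beside 6.75% of all. Reads of ChIP carry no strand, so the signal of a short ORF within or next to a gene and that of the gene cannot be told apart near their border.

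Rpb3 was 2-fold higher in osmotic shock over 270 ORFs (4.49%) and 2-fold lower over 465 (7.73%). Among the 242 ORFs whose Rpb3 rose 2-fold and that are not Hog1-occupied, the mock IP was 2-fold higher over 36 (14.9%) and lower over 0, with a median log2 fold of 0.52. Among the 465 ORFs whose Rpb3 fell 2-fold it was higher over 2 and lower over 16 (3.44%), with a median of -0.17. Over the 5278 ORFs with a smaller Rpb3 change it was higher over 64 (1.21%) and lower over 14 (0.265%), with a median of 0.03. The median Rpb3 change was 1.47 in the first of these classes and -1.44 in the second. Over all 6013 ORFs the log2 fold of the mock IP correlated with that of Rpb3 at 0.43 (Pearson) and 0.21 (Spearman), and with that of input at 0.61 and 0.58.

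The level of the mock IP followed Rpb3 more closely in osmotic shock than in mock-treated cells. The Spearman correlation of mock IP with Rpb3 signal was 0.71 in osmotic shock and 0.03 in mock-treated cells, and the Pearson correlation was 0.85 in osmotic shock and 0.37 in mock-treated cells. Input correlated with Rpb3 at a Spearman value of 0.48 in osmotic shock and 0.23 in mock-treated cells. The mock IP of osmotic shock also correlated at 0.57 (Spearman) with Rpb3 of mock-treated cells, the other treatment. The mock IP of mock-treated cells correlated at -0.11 with Rpb3 of osmotic shock. With Hog1 of the same treatment the values were 0.75 in osmotic shock and 0.01 in mock-treated cells. With 1 library per treatment, a trait of the mock-treated library and an effect of the shock cannot be told apart. In 10 equal classes of Rpb3 signal in osmotic shock, the median log2 ratio of mock IP to input lay between -0.41 and -0.39 in classes 1 to 6, and was -0.30 in class 9 and -0.11 in class 10. In mock-treated cells the ratio declined from class 1 (-0.27) to class 9 (-0.47), and was -0.29 in class 10. In class 10, 197 of 602 ORFs were above input in osmotic shock and 154 of 602 in mock-treated cells. Over the 60 ORFs with the highest Rpb3 signal, the median log2 ratio was 0.62 in osmotic shock, where 15 ORFs were at least 2-fold above input, and 0.12 in mock-treated cells, where 0 were. Within class 10 the Spearman correlation of mock IP with Rpb3 was 0.66 in osmotic shock and 0.53 in mock-treated cells, and without it 0.63 and -0.08. The number of tags behind the mock IP libraries is unknown, and its part in these values was not tested.

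**Figure D3:**
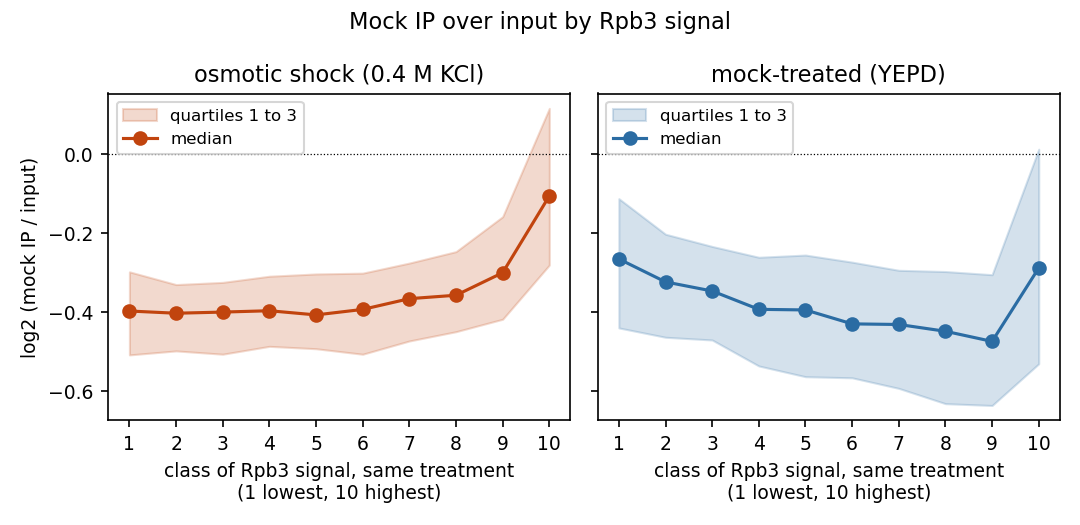
Median log2 ratio of mock IP to input (points and line) with the lower and upper quartile over ORFs (band) in 10 equal classes of Rpb3 signal of the same treatment, for osmotic shock (left) and mock-treated cells (right), with the dotted line at equal mock IP and input. The highest class is at -0.11 in osmotic shock and -0.29 in mock-treated cells, and the decline over classes 1 to 9 is seen in mock-treated cells.

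Gene groups differed in the treatment in which their background was high. Of 32 general stress ORFs, 13 were 2-fold higher and 0 lower (median log2 fold 0.79, with 7 higher after division by input). Above input were 17 in osmotic shock and 2 in mock-treated cells, beside 6.14% and 7.03% of all ORFs. Of 14 glycerol metabolism ORFs, 4 were higher and 0 lower (0.57), and 3 were higher after division by input. Of 16 trehalose and glycogen ORFs, 3 were higher and 0 lower (0.39), among them the trehalose synthase genes TPS2 (21400 in osmotic shock, 7190 in mock-treated cells) and TPS1 (19400 and 8060). Of 16 eisosome and Sur7 family ORFs, 4 were higher and 0 lower (0.42), with LSP1 at 19000 in osmotic shock and 8570 in mock-treated cells. Of 11 hexose transporter ORFs, 2 were higher and 0 lower (0.23), and of 18 chaperone ORFs 1 was higher and 0 lower (0.35). That chaperone is the cyclophilin gene CPR1, with 16700 in osmotic shock and 7590 in mock-treated cells. After division by input 0 trehalose and glycogen, 1 eisosome, 1 hexose transporter and 0 chaperone ORFs were higher. The counts before division stand beside 2.1% higher and 0.499% lower among all ORFs, and those after it beside 0.915% higher. Several lists share members with the 28. The higher ORFs of the glycerol list (GPD1, HOR2, RHR2 and STL1) and of the hexose transporter list (HXT1 and HXT5) are all Hog1-occupied. So are FMP45, PIL1 and NCE102 of the eisosome list, whereas LSP1, TPS1 and TPS2 are not.

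Cytosolic ribosomal protein ORFs went the other way. Of 126, 7 were 2-fold lower and 0 higher, 122 had a log2 fold below 0, and the median was -0.53. Their median mock IP signal was 8340 in osmotic shock and 12500 in mock-treated cells. Above input were 28 of the 126 in osmotic shock and 96 in mock-treated cells, beside 6.14% and 7.03% of all ORFs. After division by input 1 of the 126, RPL30, was 2-fold lower, beside 0.233% of all ORFs. The median was then -0.32, and the median log2 fold of their input was -0.22. RPL31A, RPL33A and RPL28 were among the 7, with 6710, 6400 and 7020 in osmotic shock and 15600, 14900 and 16100 in mock-treated cells.

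Ribosome biogenesis (57 ORFs, median -0.22) and translation factors (24 ORFs, median -0.11) had 0 ORFs past 2-fold in either direction. Mitochondrial ribosomal proteins, whose genes are not part of the cytosolic ribosome programme, had 2 of 68 higher and 0 lower, beside 2.1% and 0.499% of all ORFs. The median of these 68 was -0.01, with 34 above 0 and 34 below. The 2 higher were MRPS12, with 10100 in osmotic shock and 4060 in mock-treated cells, and RSM19, with 9040 and 2500. None of the ORFs of amino acid synthesis (48), proteasome (32), mating (32), respiratory chain and ATP synthase (36), glycolysis and fermentation (19) or histones (10) passed 2-fold, and their medians lay between -0.02 and 0.15.

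Some of these groups were high in both treatments. Over the 10 histone ORFs the median was 15750 in osmotic shock and 13650 in mock-treated cells. Above input were 9 in osmotic shock and 7 in mock-treated cells, beside 6.14% and 7.03% of all ORFs. In osmotic shock the mock IP was 89.7% of the Hog1 signal over HHF1 and 83.5% over HHF2. It was 58.2% over HTA1 and 64.1% over HHO1, beside a median of 60.6% over all ORFs. The glycolytic gene TDH3, for glyceraldehyde 3-phosphate dehydrogenase, had 26200 in osmotic shock and 22300 in mock-treated cells. Its Rpb3 signal was 424000 in osmotic shock and 533000 in mock-treated cells. The part of tag placement between ORFs of similar sequence was not tested for the histone ORFs, TDH3 or the cytosolic ribosomal protein ORFs. Other glycolytic ORFs fell short of 2-fold: PDC1, the main pyruvate decarboxylase gene, had 13400 in osmotic shock and 26400 in mock-treated cells (log2 fold -0.93), and ENO2, for enolase, had 10600 and 17600 (-0.68). ORFs beside a tRNA gene in the R64 order, which Pol III transcribes, had a median of 8010 in osmotic shock and 7990 in mock-treated cells over 437 ORFs, of which 10 were higher and 0 lower, beside 2.1% and 0.499% of all ORFs. Over ACT1, POL1 and MYO4, ORFs from the study's qPCR that were listed for their small change of Pol II, the mock IP signal was 9250, 7480 and 7430 in osmotic shock and 9140, 7150 and 8340 in mock-treated cells.

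**Figure D4:**
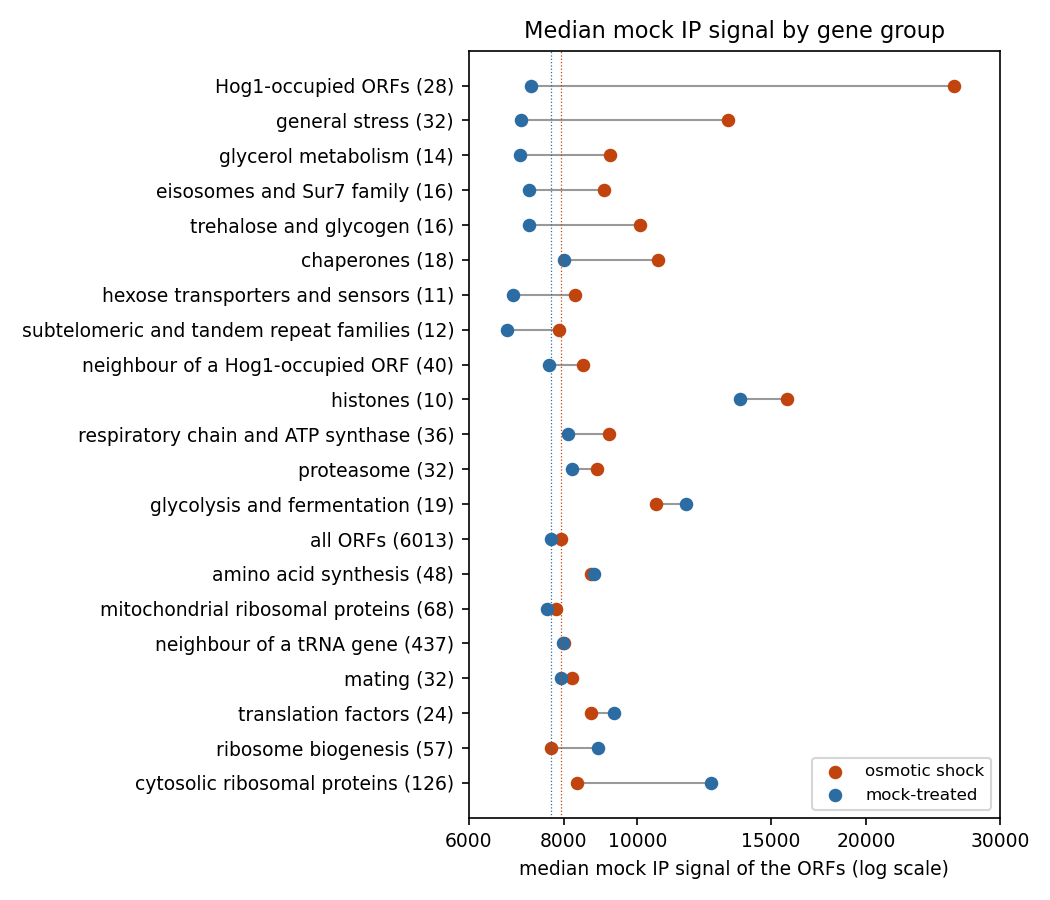
Median mock IP signal over the ORFs of each gene group (number of ORFs in brackets) in osmotic shock (red) and in mock-treated cells (blue) on a log scale, with dotted lines at the medians of all 6013 ORFs. The stress groups are higher in osmotic shock, the cytosolic ribosomal proteins are higher in mock-treated cells (8340 and 12500), and the histone ORFs are high in both.

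The mock IP also rose over ORFs with no 2-fold change of Rpb3. Of the 126, 60 were 2-fold higher in Rpb3, 2 were 2-fold lower (BUD23 and YGR176W) and 64 were neither. The 64 were chosen by a 2-fold rise between the 2 mock IPs, so a low mock-treated signal is in part fixed by the choice. They had an ordinary signal in osmotic shock and a low one in mock-treated cells, with medians of 9180 and 3680. Of the 64, 59 were below the fifth percentile of the mock-treated library (4930). Their input medians were 9350 in osmotic shock and 7745 in mock-treated cells, and 21 of the 64 stayed 2-fold higher after division by input. The largest fold among them was at YLR235C, with 9380 in osmotic shock and 1380 in mock-treated cells. The next in size were YFL021C-A (8080 and 1450) and YLR120W-A (6980 and 1240). Of the 64, 10 have another of them at the same or an adjacent systematic number, such as MRPS12 and RSM19 (YNR036C and YNR037C). The same count was not made for other sets of ORFs, so whether 10 is many is not known.

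Other ORFs had a mock IP well above input in mock-treated cells, or in both treatments. SMT3, which encodes the SUMO protein, had 35900 in osmotic shock and 32400 in mock-treated cells over an input of 10800 in both, 3.32 and 3.00 times input. Its Rpb3 signal was 21500 in osmotic shock and 14500 in mock-treated cells. MTC7 was 2.10 times input in osmotic shock and 2.09 times in mock-treated cells, and SMT3 and MTC7 were the only 2 ORFs at least 2-fold above input in both. EFM5, a protein methyltransferase gene, and DEG1, a pseudouridine synthase gene, were 2.43 and 2.22 times input in mock-treated cells and 1.23 and 1.07 times in osmotic shock. In all, 22 ORFs in osmotic shock, 11 of them Hog1-occupied, and 7 in mock-treated cells, 0 of them Hog1-occupied, were at least 2-fold above input.

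At the 317 low-input ORFs the mock IP and the input parted. Their median mock IP signal was 6760 in osmotic shock and 6100 in mock-treated cells, against 7930 and 7690 at the other ORFs, while their median input was 3830 and 4410. Mock IP was above input over 222 in osmotic shock and 218 in mock-treated cells, beside 6.14% and 7.03% of the 6013 other ORFs. By treatment, 17 of the 317 (5.36%) were 2-fold higher in osmotic shock and 15 (4.73%) were lower.

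The gap was wide where input was lowest. Over the 55 ORFs with input under 1000 in both treatments, of which 18 are listed retrotransposon ORFs and 4 are on the list of subtelomeric and tandem repeat families, the median mock IP signal was 8700 in osmotic shock and 7910 in mock-treated cells. The medians of the other libraries over the same ORFs were 259 (input), 176 (Rpb3) and 370 (Hog1) in osmotic shock and 219, 200 and 349 in mock-treated cells. A signal under 1000 was found over 3 ORFs in the mock IP of osmotic shock and 2 in that of mock-treated cells, against between 46 and 106 ORFs in the input, Rpb3 and Hog1 libraries. All 24 retrotransposon ORFs in the table were among the low-input ORFs, with mock IP signals between 4180 and 15000 in osmotic shock and between 4080 and 15400 in mock-treated cells, and input medians of 190.5 and 150. None of the 24 changed 2-fold, and their median log2 fold was 0.04. The study's methods state that tags which could be aligned uniquely were mapped, with no exception named for the mock IP, and the part of tag placement in these values was not tested. The mock IP of one ORF, the transporter gene PDR18, was near 0 as in every other library, with 65 in osmotic shock and 69.2 in mock-treated cells.

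**Figure D5:**
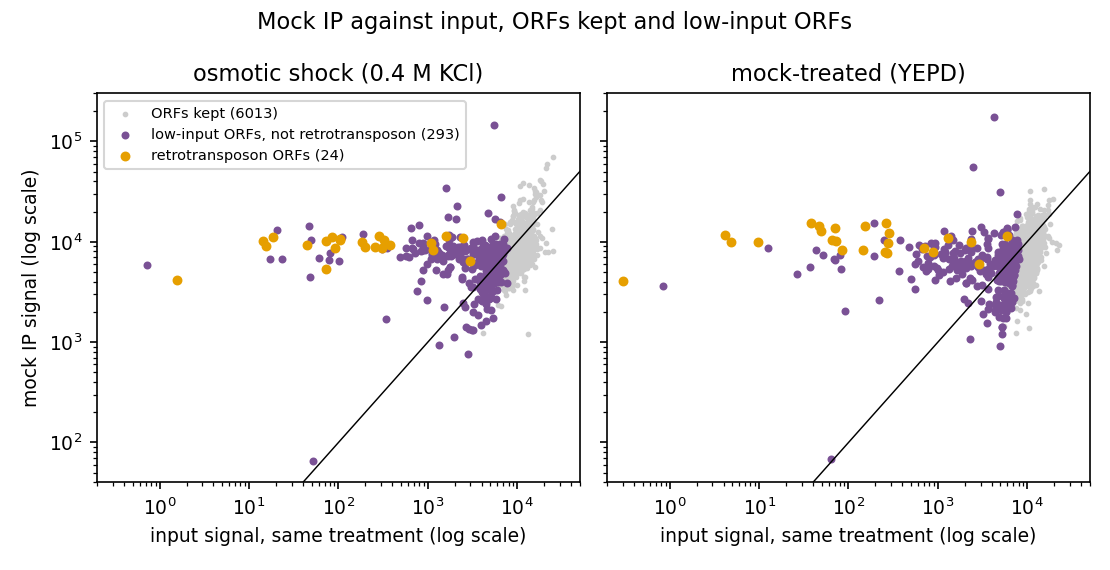
Mock IP signal against input signal of the same treatment, both on log scales, for osmotic shock (left) and mock-treated cells (right), with 1 point per ORF, the line at equal signal, 6013 ORFs in grey, 293 low-input ORFs in purple and 24 retrotransposon ORFs in orange. Retrotransposon ORFs lie at mock IP signals from 4080 to 15400 across inputs that span several orders of magnitude.

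Among low-input ORFs the highest mock IP signal was at YLR162W, with 146000 in osmotic shock and 176000 in mock-treated cells over an input of 5570 and 4210. This is above every one of the 6013 other ORFs, GPD1 included. YHR054C and RSC30, in the region of the CUP1 tandem repeat, had 34200 and 19500 in osmotic shock and 55600 and 31000 in mock-treated cells. None of these 3 changed 2-fold between the treatments. SSA2, a cytosolic Hsp70 gene with a close paralog, had 27900 in osmotic shock and 13800 in mock-treated cells, with Rpb3 at 114000 and 69800.

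The largest rises at low input were at YLR466C-B (22600 in osmotic shock, 5770 in mock-treated cells), PET122, YOR139C, LCL1 and YAT1, with log2 folds of 1.63 to 1.80. The Rpb3 change was under 2-fold at all 5, and the mock-treated signal was between 1210 and 2080 at the last 4. The largest falls were at YDR406W-A (1880 in osmotic shock, 8620 in mock-treated cells), YGR228W, YDR524W-C, OPI11 and YER046W-A, with log2 folds of -1.74 to -1.44. OPI11 lies beside RPL43A, which itself had 8800 in osmotic shock and 18600 in mock-treated cells. Subtelomeric and tandem repeat families held 31 low-input ORFs with a median log2 fold of 0.51, and 0 of them passed 2-fold.

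Promoters, taken as 1000 bp upstream of each ORF, and downstream regions, from 50 to 500 bp, have deposited tables with columns headed mock IP as well. As headed, 0 of 6609 promoters and 0 of 6609 downstream regions changed 2-fold. The heads of these tables and those of the ORF table could not be matched throughout. In osmotic shock, the log2 signal over 6330 ORFs correlated at -0.04 between mock IP and the promoter column headed mock IP. Hog1 over ORFs correlated with the promoter column headed input at 0.66, and at 0.04 with the one headed Hog1. Input over ORFs correlated with the column headed mock IP at 0.58, and with the one headed input at 0.52. Without the low-input ORFs these were 0.05 and 0.14. Over the promoters of the 28 ORFs the column headed input had a median of 42150 in osmotic shock and 12200 in mock-treated cells. Over promoters of ORFs with input under 1000, medians in osmotic shock were 515 (headed mock IP), 539 (input) and 7760 (Hog1). In mock-treated cells they were 446, 703 and 7480. The column headed Hog1 thus had an ordinary level there, as the mock IP had over those ORFs. Mock IP over ORFs, however, correlated with that column at 0.08 in osmotic shock and 0.29 in mock-treated cells. The heads may not name the library held, which was not settled, and no result on the mock IP is drawn from these tables.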

How the data were processed

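All values came from ChIP-seq of wild-type *S. cerevisiae*, 1 library per assay and treatment, and the libraries were matched to groups by their titles. The deposited table gives a coverage signal per ORF that the authors name RPKM, scaled to ORF length and library total and rounded to 3 digits. It is taken here as coverage by extended tags because of its size. The submitters' processing notes name Bowtie and sacCer2 and the supplement names ELAND, with no versions. Overlapping parts of ORFs were left out by the authors. The supplement states that uniquely alignable tags were used. It gives a range of reads for Hog1 and transcription factor libraries, but read totals of the mock IP, input and Rpb3 libraries are not given in the sources used here, so their depth and counting error are unknown.

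Of 6334 ORF entries, 4 that share 1 name were left out. The 317 ORFs with the lowest mean of both inputs (5%) were kept apart, which left 6013. To each signal 989 was added, which is 0.1 times the median input, and folds are the log2 ratio of osmotic shock to mock-treated cells, so the change of low signals is understated. A change was counted from 2-fold on. With 1 library per treatment no test was run. The R64 gene table, in which 5807 ORFs were found, gave names and neighbours only. The members and the 26 gene lists were chosen with earlier results of these data known. The naming rule took the 10 largest rises and falls, the 5 highest signals and ratios to input per library, the Hog1-occupied ORFs, at most 4 ORFs per list (those that changed most), 5 rises and 5 falls at low input, and the strain check and qPCR loci. Any other ORF was picked with its values known. The calculation was tested on simulated data. Alternatives were other pseudocounts (0.5 and 0.02 times the median input), input filters, centring, subtraction of or division by input, and a count from 1.5-fold on. Python 3.11.15, numpy 2.4.6, pandas 2.3.3 and matplotlib 3.10.9 were used. Deposited peak lists were not used.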

Additional observations from a re-analysis of the deposited data

How the results depend on the processing

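The counts depended on the pseudocount. With 0.5 times the median input added, 38 ORFs were higher and 8 lower (15 and 3 after division by input, 1 and 2 at low input). With 0.02 times, 175 were higher and 47 lower (88 and 22 after division by input, 25 and 24 at low input). Counted from 1.5-fold on, 497 were higher and 218 lower. Division by input left 55 and 14. With input subtracted 159 were higher and 193 lower, and the median of the 28 Hog1-occupied ORFs was 3.60, since most mock-treated values were then 0. With the lowest 10% of input left out 18 were lower and 96 higher (8 lower after division by input), with no input filter 45 were lower (22 after division by input), and the lowest 10% alone held 47 higher and 27 lower of 635. A filter on the mock-treated input alone, chosen after seeing the data, gave 110 and 34. Centred on the median ORF, 109 were higher and 33 lower. At the Hog1-occupied ORFs the number 2-fold higher was between 17 and 25, with 25 of the 28 ORFs left by the 10% filter and by that on the mock-treated input (21 higher in each), and 28 were higher counted from 1.5-fold on. In 20 instead of 10 Rpb3 classes, the difference in log2 ratio between the highest and lowest class was 0.43 in osmotic shock (0.29 in 10) and 0.14 in mock-treated cells (-0.02 in 10). The correlation of mock IP and Rpb3 folds was 0.36 (Pearson) without the Hog1-occupied ORFs. Of 52 named ORFs past 2-fold, 31 stayed so after division by input and 35 with the larger pseudocount, and 0 reversed. No paired analysis was possible because there is 1 library per treatment, and for the same reason none could be left out. Rounding to 3 digits and the unknown number of tags limit the precision.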
